A study of Mus musculus with 8 samples.

Results

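The AP-1 transcription factors were followed in the dorsal epidermis of mice at postnatal day 4, in which the nuclear receptor RORα had or had not been deleted from the epidermis. The set held 9 genes, the FOS family (*Fos*, *Fosb*, *Fosl1* and *Fosl2*), the JUN family (*Jun*, *Junb* and *Jund*) and 2 related basic leucine zipper genes, *Atf3* and *Maff*. Members were the rows whose Ensembl identifier carried one of these symbols in the GENCODE annotation, which gave 9 of the 55416 genes in the count table. All 9 passed the filter on low counts and were among the 13147 genes tested.

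AP-1 is a family of dimers that bind DNA through a basic region next to a leucine zipper. FOS proteins do not pair with themselves and bind DNA with a JUN partner, whereas JUN proteins can also pair with one another, and ATF3 and the small MAF protein MAFF join the same network of dimers. Several members, *Fos* and *Jun* among them, are immediate early genes, whose transcripts appear soon after serum, stress or tissue injury and decay quickly. In the epidermis, AP-1 sites lie in the control regions of genes for cornified envelope proteins and stress keratins, and loss of JUN proteins from mouse keratinocytes is known to lead to inflamed skin.

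The promoters of members are shown where they hold letters bound by AP-1 or CREB and ATF proteins, since AP-1 genes are known to be controlled in part by their own products. RefSeq promoter windows (GRCm38.p6) were found for 8 of the 9 members, with 10 windows in all, and *Fosl1* had none. The 250 bases before the start were searched on both strands for TGACTCA (the TPA response element), TGACGTCA (the cAMP response element), its shorter form TGACGT, which the full element also holds, TGACATCA (a variant first described at *Jun*), AGGTCA (the core bound by RORα and other nuclear receptors), the full ROR response element, CACGTG (the E-box) and the CArG box bound by SRF. No member's window held the TPA response element, the RORα core, the full ROR response element or the CArG box, which were in 4.46%, 14.0%, 0.332% and 1.47% of the 32851 windows of the table. Bases farther upstream were not searched, so a site of any of these kinds beyond the 250 bases would not be seen. TGACATCA was in 2.93% of these windows, TGACGT in 6.47%, TGACGTCA in 1.55% and CACGTG in 6.02%. The windows below were matched to GRCm39, run from 5′ to 3′, and carry the matches in capitals.
*Fos*, chr12:85520414-85520657, plus strand, with TGACGT at positions -66 to -61 from the RefSeq start: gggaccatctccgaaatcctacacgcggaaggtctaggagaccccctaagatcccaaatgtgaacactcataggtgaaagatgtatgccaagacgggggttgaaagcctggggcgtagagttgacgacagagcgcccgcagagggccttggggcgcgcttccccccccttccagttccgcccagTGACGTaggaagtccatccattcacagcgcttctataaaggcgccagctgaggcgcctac
*Jun*, chr4:94940460-94940709, minus strand, with TGACATCA at positions -45 to -38: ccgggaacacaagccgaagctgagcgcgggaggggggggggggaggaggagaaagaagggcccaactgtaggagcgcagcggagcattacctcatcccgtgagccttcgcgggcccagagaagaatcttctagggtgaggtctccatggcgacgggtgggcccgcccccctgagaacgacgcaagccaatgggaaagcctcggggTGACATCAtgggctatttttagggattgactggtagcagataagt
*Maff*, chr15:79231470-79231719, plus strand, with CACGTG at positions -191 to -186 and TGACGTCA at positions -29 to -22: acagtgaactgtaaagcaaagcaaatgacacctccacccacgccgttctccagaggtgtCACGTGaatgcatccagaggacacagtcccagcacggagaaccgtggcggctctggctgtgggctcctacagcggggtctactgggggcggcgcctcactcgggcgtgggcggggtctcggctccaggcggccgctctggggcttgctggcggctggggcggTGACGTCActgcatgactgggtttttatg
The *Fos* window is shown without its last 6 bases, which lie in the first annotated exon, and the *Maff* window lies inside the gene, between its first exon and a later one. *Atf3* held ACGTCA, the reverse complement of TGACGT, at positions -8 to -3, mostly within an annotated exon of a window 34711 bases inside the annotated gene, and another *Maff* window held TGACATCA. No match was found in the windows of *Fosb*, *Fosl2*, *Junb* or *Jund*, but in GENCODE the *Jund* window ends over 1 kb before the annotated gene and all 250 bases of the *Fosl2* window lie in exon. These are matches of letters only, and no binding was measured in these samples.

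RNA-seq had been done on 4 control and 4 *Rora* EKO libraries, each from a separate sample of epidermis. *Rora* EKO mice came from a cross of a *Rora* flox/flox strain with a *K14-Cre* strain, in which the keratin 14 promoter drives Cre in basal keratinocytes, whose descendants in the upper layers and appendages inherit the deletion, while cells of other lineages in the epidermis were not targeted. The labels call the control samples WT and do not say whether they carried floxed alleles or Cre. The epidermis had been lifted off the dermis after a short heat treatment in saline and cooling on ice, and was snap-frozen, a handling step shared by both genotypes. Nothing in the labels says whether the samples came from separate litters, so p-values measure the spread between these samples.

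Library totals ran from 17286903 to 26705533 counts. *Rora* itself was at 212 ± 66.6 CPM (counts divided by the scaled library total in units of 1000000) in control and 196 ± 34.6 CPM in *Rora* EKO libraries (SD, n = 4 each; log2 fold change -0.11, edgeR quasi-likelihood adjusted p = 0.877), and these counts pool all exons of the gene, so they did not check the deletion. *Xist* was at 416 CPM in control C1 and 527 CPM in control C6 and at no more than 0.0546 CPM in the other 6 libraries. The Y-linked gene *Ddx3y* was at 0 CPM in C1 and C6 and at 15.7 to 24.1 CPM in the other 6. This is the pattern of females in C1 and C6 and of males in the rest, although the labels used here give no sex. Every *Rora* EKO library had the male pattern, so sex was in part confounded with genotype, and results were also computed without C1 and C6. Summed spinous and granular keratinocyte markers were high in every library, at 45080 to 107690 CPM and 15006 to 22761 CPM. The 7 basal keratinocyte markers summed to far less, 283 to 1252 CPM, beside 241 to 362 CPM for Langerhans cell markers. The 4 endothelial markers summed to at most 3.18 CPM. Because the tissue was sequenced in bulk, fewer cells of a type and less RNA per cell cannot be told apart.

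Of the 9 members, 0 passed the cutoffs of the study, an adjusted p below 0.05 and a fold change above 1.5, between *Rora* EKO and control epidermis. The same edgeR quasi-likelihood test called 5.51% of the 13147 genes tested, 2.3% higher and 3.22% lower in *Rora* EKO. At an unadjusted p under 0.05 there was 1 member, *Fosl2*, beside 18.2% of all tested genes. The log2 fold changes of the members ran from -0.31 to 0.34 with a median of 0.18, beside a median of -0.04 over all tested genes, and 7 were above 0. In no member did the 4 *Rora* EKO libraries lie apart from the 4 control libraries, which they did in 12.9% of all tested genes. Under each of 19 other settings, DESeq2, limma-trend and the fits without control C1 and C6 among them, the number of members past both cutoffs was also 0.

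**Figure D1:**
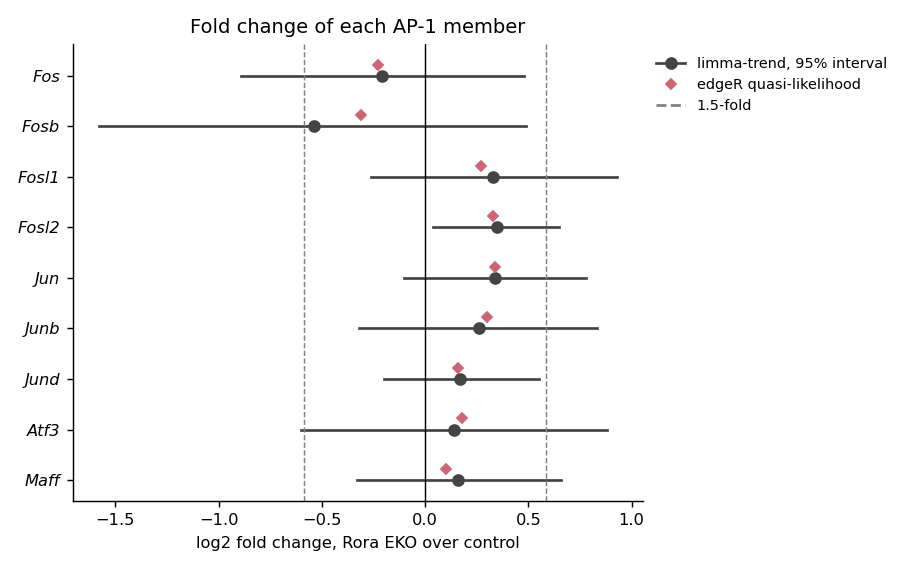
Log2 fold change (*Rora* EKO over control, x axis) of each AP-1 member (y axis), as the limma-trend estimate with its 95% interval (circle and line) and the edgeR quasi-likelihood estimate (diamond), with dashed lines at 1.5-fold. The interval of *Fosl2*, from 0.04 to 0.65, lies above 0, and those of the other 8 members include 0.

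*Fos*, the best-known immediate early gene of the family, varied more between libraries than between genotypes. It was at 32.0, 30.98, 69.3 and 51.1 CPM in control A1, B1, C1 and C6, and at 46.7, 27.3, 53.7 and 29.0 CPM in *Rora* EKO A3, B4, C2 and C3. The high libraries were control C1, *Rora* EKO C2 and control C6, and the genotypes overlapped over most of their range. The log2 fold change was -0.23 with an SE of 0.37 (edgeR adjusted p = 0.793), and the 95% interval from limma-trend ran from 0.54-fold to 1.39-fold. Without control C1 the estimate was 0.04 (edgeR adjusted p = 0.972).

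*Fosb*, which is induced by the same stimuli as *Fos*, was a low transcript here, with 30 to 163 counts per library. Its levels were 3.69, 3.88, 6.25 and 5.37 CPM in control A1, B1, C1 and C6 and 3.002, 1.23, 7.85 and 3.44 CPM in *Rora* EKO A3, B4, C2 and C3. The lowest and the highest library of all 8 were both *Rora* EKO. The difference of mean log2 CPM was -0.54 ± 0.56 (SE), with a limma-trend interval of 0.334-fold to 1.41-fold, the widest of the 9 members. The edgeR log2 fold change was -0.31 (adjusted p = 0.823). Without *Rora* EKO C2 the estimate was -0.85 (edgeR unadjusted p = 0.0490, adjusted p = 0.324), and without *Rora* EKO B4 it was 0.00.

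*Fosl1* encodes FRA1, a FOS protein without the strong activation domain of FOS that is known from migrating and proliferating keratinocytes. It was measured at 8.68, 3.72, 4.17 and 5.29 CPM in control A1, B1, C1 and C6 and at 4.96, 7.07, 7.08 and 7.34 CPM in *Rora* EKO A3, B4, C2 and C3. *Rora* EKO B4, C2 and C3 lay close together above 3 of the controls, but control A1 was the highest of all and *Rora* EKO A3 fell among the controls. On the log2 scale *Rora* EKO was 0.27 ± 0.30 above control (SE; edgeR adjusted p = 0.693), and without control A1 it was 0.59 with an adjusted p of 0.134. The 95% interval allowed 0.832-fold to 1.91-fold.

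*Fosl2*, which encodes FRA2, a FOS protein found in differentiating layers of the epidermis, came closest to a difference. It was at 148, 114, 98.9 and 108 CPM in control A1, B1, C1 and C6 and at 152, 146, 157 and 136 CPM in *Rora* EKO A3, B4, C2 and C3. All *Rora* EKO libraries lay above 3 of the 4 controls, and control A1 lay within the *Rora* EKO range. The log2 fold change was 0.33 ± 0.13 (SE), with an unadjusted p of 0.0413 and an adjusted p of 0.249 in edgeR, and 16.6% of all tested genes had a smaller p. An exact two-sided permutation test over the 70 assignments of libraries gave p = 0.0857, where the smallest possible value with 4 against 4 is 0.0286. Without control A1, the library that lay apart from the other controls, the adjusted p was 0.0394 in edgeR at a log2 fold change of 0.46, which is below 1.5-fold. It was 0.17 with *Xist* as covariate (edgeR adjusted p = 0.591), 0.23 without control C1 and C6 (adjusted p = 0.510) and 0.26 without control C1 alone (adjusted p = 0.463).

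**Figure D2:**
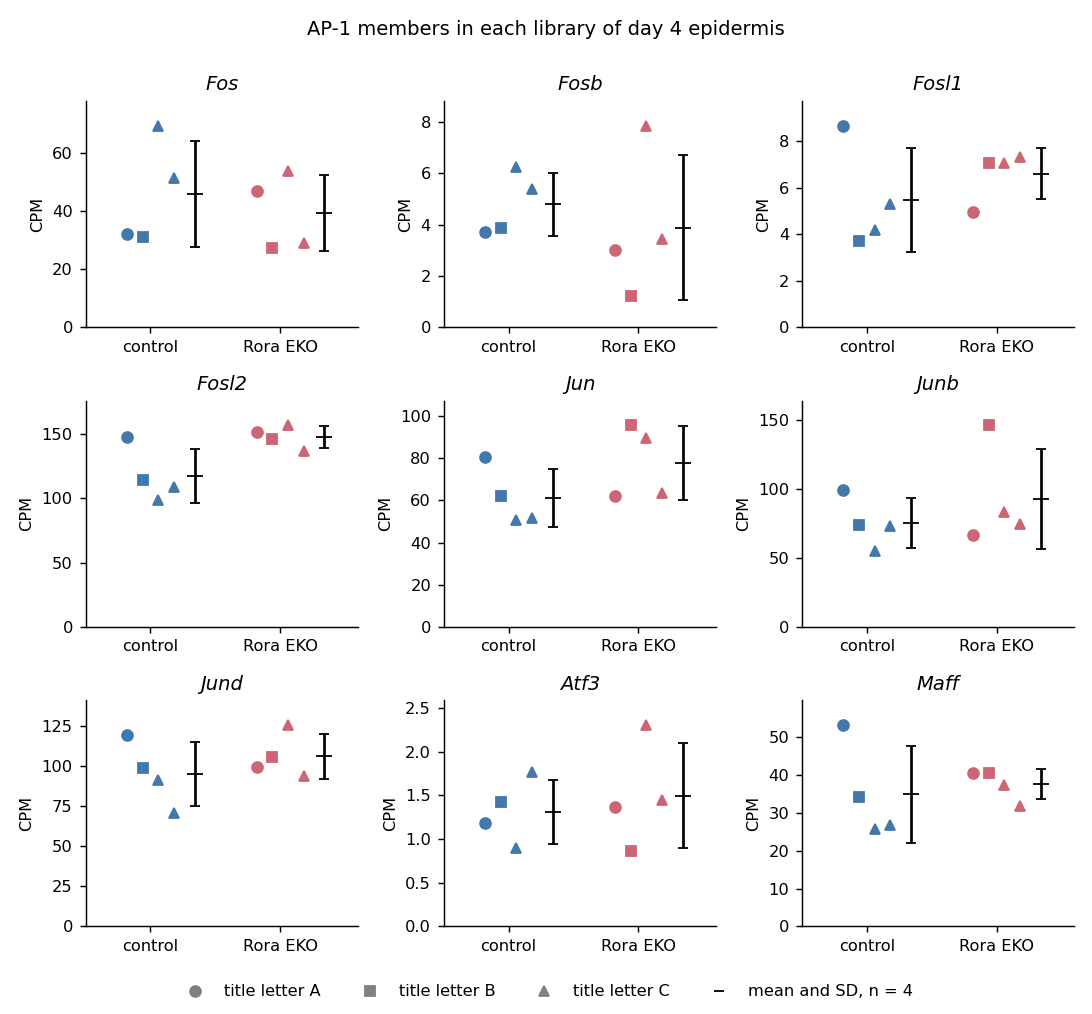
CPM (y axis, from 0) of each AP-1 member in the 4 control (blue) and 4 *Rora* EKO (red) libraries (x axis), with the title letter as marker shape and the mean and SD of each genotype in black. The genotypes overlap in every panel, and *Fosl2* shows the least overlap, with control A1 at 148 CPM beside *Rora* EKO libraries at 136 to 157 CPM.

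*Jun* encodes c-JUN, the partner through which FOS proteins bind DNA. Its levels were 80.5, 62.0, 50.6 and 51.8 CPM in control A1, B1, C1 and C6 and 62.2, 95.8, 89.6 and 63.3 CPM in *Rora* EKO A3, B4, C2 and C3. *Rora* EKO B4 and C2 exceeded every control, whereas A3 and C3 lay between control B1 and control A1. An estimated log2 fold change of 0.34 ± 0.22 (SE) had an adjusted p of 0.425 in edgeR, and the 95% interval ran from 0.933-fold to 1.72-fold.

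*Junb*, a JUN protein that weakens c-JUN activity at some sites and restrains cytokine production in skin, stood out in 1 library. It was at 98.9, 73.9, 55.1 and 73.0 CPM in control A1, B1, C1 and C6 and at 66.2, 146, 83.0 and 74.7 CPM in *Rora* EKO A3, B4, C2 and C3. The value in *Rora* EKO B4 was the highest, and the other *Rora* EKO libraries lay within the control range. Its log2 fold change of 0.30 ± 0.31 (SE; edgeR adjusted p = 0.647) was -0.01 without *Rora* EKO B4 (adjusted p = 0.990). In the same library the summed basal keratinocyte markers were 1252 CPM, beside 283 to 633 CPM in the other 7, and their part in the *Junb* value was not tested.

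*Jund*, the JUN member known for steady expression in resting cells, had one of the narrower spreads. It was at 120, 99.1, 91.5 and 71.1 CPM in control A1, B1, C1 and C6 and at 99.3, 106, 126 and 93.7 CPM in *Rora* EKO A3, B4, C2 and C3. Its log2 fold change was 0.16 ± 0.18 (SE; edgeR adjusted p = 0.719), and the interval of 0.869-fold to 1.46-fold left out a change of 1.5-fold in either direction. No other member had an interval that did so.

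*Atf3*, a stress-induced gene whose product often represses transcription, was the lowest of the 9 as CPM, with 19 to 48 counts per library. It was at 1.18, 1.42, 0.899 and 1.76 CPM in control A1, B1, C1 and C6 and at 1.37, 0.863, 2.31 and 1.45 CPM in *Rora* EKO A3, B4, C2 and C3. The genotypes overlapped throughout, with a log2 fold change of 0.18 ± 0.33 (SE; edgeR adjusted p = 0.872) and an interval of 0.658-fold to 1.84-fold.

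*Maff* encodes a small MAF protein, which lacks an activation domain of its own and acts through its partners. It was at 53.3, 34.1, 25.6 and 26.7 CPM in control A1, B1, C1 and C6 and at 40.5, 40.6, 37.4 and 31.9 CPM in *Rora* EKO A3, B4, C2 and C3. The *Rora* EKO libraries lay between control A1 and the C-lettered controls. The log2 fold change was 0.10 ± 0.26 (SE; edgeR adjusted p = 0.886), with an interval of 0.796-fold to 1.58-fold.

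Per length, the JUN family lay at the top of the order. On the scale of CPM per kb of annotated exon, averaged over all 8 libraries, *Jund* was at 60.5 ± 10.2, *Junb* at 35.2 ± 11.8 and *Jun* at 21.8 ± 5.35 (SD, n = 8). The middle of the order was held by *Fos* at 18.0 ± 6.40, *Fosl2* at 12.7 ± 2.13 and *Maff* at 11.4 ± 2.80. *Fosl1* at 2.97 ± 0.861, *Fosb* at 0.695 ± 0.331 and *Atf3* at 0.577 ± 0.193 were the lowest. The ranges over libraries did not overlap between *Maff* and *Fosl1* or between *Fosl1* and *Fosb*, and overlapped between all other neighbours. Within single libraries *Jund* was above *Junb*, and *Junb* above *Jun*, in 8 of 8, whereas *Jun* was above *Fos*, *Fos* above *Fosl2* and *Fosb* above *Atf3* in 5 of 8 each. The order was the same with the length of the longest transcript in place of all exons, which moved *Fosl2* to 19.0, *Maff* to 16.6 and *Fosb* to 1.15 CPM per kb.

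**Figure D3:**
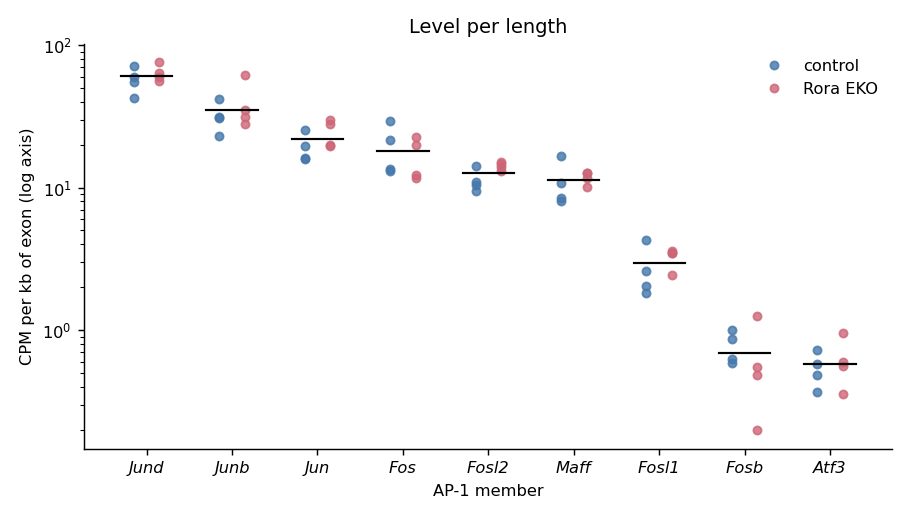
CPM per kb of annotated exon (y axis, log scale) of the 9 AP-1 members (x axis, in order of their mean), with 1 point per library, blue for control and red for *Rora* EKO, and a line at the mean of all 8. *Jund* at 60.5 and *Atf3* at 0.577 CPM per kb mark the ends of the order.

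The make-up of each family was then expressed as the share of its summed CPM per kb. *Fos* made up 55.5% ± 12.5 of the FOS family in control and 46.9% ± 7.39 in *Rora* EKO epidermis, and *Fosl2* made up 34.2% ± 9.89 and 41.7% ± 5.54 (SD, n = 4). *Fosl1* was at 8.04% ± 3.52 and 9.70% ± 2.78, and *Fosb* at 2.24% ± 0.286 and 1.70% ± 0.970. With the longest transcript as length, *Fos* led in control, at 49.7% beside 40.4% for *Fosl2*, but *Fosl2* led in *Rora* EKO, at 48.6% beside 41.0%, so the leading member depended on the length used. In the JUN family *Jund* made up 53.0% ± 4.53 in control and 50.9% ± 6.74 in *Rora* EKO, *Junb* 29.3% ± 3.99 and 30.0% ± 6.63, and *Jun* 17.7% ± 0.613 and 19.1% ± 0.925. For *Fos*, *Fosb*, *Fosl2* and *Jun* the means of the genotypes lay about as far apart as, or farther than, the SD of one of them, and no test was run on the shares. In the JUN family *Jun* had the most even share, between 16.9% and 20.3% in all 8 libraries, beside 24.6% to 39.6% for *Junb* and 41.0% to 58.5% for *Jund*.

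The spread between libraries of a genotype limited these comparisons. The SD of log2 CPM within genotypes had a median of 0.421 over the members and of 0.296 over all tested genes. *Fosb* had the largest SD, 0.790, with 91.8% of all tested genes below it, and *Fosl2* the smallest, 0.185, with 22.2% below. Control A1 was the highest control library in 6 of the 9 members (*Fosl1*, *Fosl2*, *Jun*, *Junb*, *Jund* and *Maff*), and control C1 was the highest in *Fos* and *Fosb* and the lowest in 5 others. Among *Rora* EKO libraries C2 was the highest in 5 members, and B4 was the highest in *Jun*, *Junb* and *Maff* and the lowest in *Fos*, *Fosb* and *Atf3*.

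The letter at the start of each sample title, A, B or C, is not explained in the labels, and genotypes were also compared within it, as single differences without a test of letter against genotype. Within letter A, with 1 library of each genotype, 3 members were higher in *Rora* EKO and 6 were lower. Within letter B, again with 1 library of each, 6 were higher and 3 lower, and within letter C, with 2 of each, 7 were higher and 2 lower. Control C1 and C6 are the libraries with *Xist*, which was at 0 and 0.0499 CPM in *Rora* EKO C2 and C3. Within letter C, genotype and *Xist* therefore cannot be told apart. *Fosl2* was higher in *Rora* EKO under all letters, by 0.04, 0.36 and 0.50 on the log2 scale in A, B and C, and *Fosb* was lower under all, with differences of -0.29, -1.58 and -0.15. The other 7 members did not have the same sign under all letters, as *Junb* with -0.58 in A, 0.98 in B and 0.31 in C, and control A1, the only control of letter A, was the highest control in 6 members. With the letter as a block in edgeR the adjusted p of *Fosl2* was 0.112 at a log2 fold change of 0.35. Summed hair follicle markers differed by letter too, at 16768 CPM or more in every A and B library and 9636 CPM or less in every C library, and their part in the member values was not tested.

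Variation shared between members was described after the mean of each genotype had been subtracted from the log2 CPM. All 15 pairs among *Fosl1*, *Fosl2*, *Jun*, *Junb*, *Jund* and *Maff* had a positive Pearson's r over the 8 libraries, between 0.34 and 0.95. Without the 2 libraries farthest from the median of the first gene of a pair, which included control A1 in all 15 pairs, r ran from -0.04 to 0.79 and 5 of the 15 fell to 0.10 or less, *Fosl2* and *Junb* to -0.04 among them, so the block rested in part on these libraries. All 3 pairs among *Fos*, *Fosb* and *Atf3* were positive as well, from 0.26 to 0.73, but the highest of them, *Fosb* and *Atf3*, was at -0.24 without *Rora* EKO B4 and C2. Of the 18 pairs that joined these to the former 6, 3 were positive, and 5 were when 2 libraries were left out in the same way. All 5 joined *Atf3* to a gene of the 6, with *Junb* the highest at 0.77, so *Atf3* did not keep to this grouping. This grouping was drawn after the correlations were seen. For *Jun* and *Junb*, r was 0.84 (permutation p = 0.00174) and Spearman's rho 0.83 (permutation p = 0.00868), and r was 0.62 without the 2 libraries farthest from the median of *Jun*. For *Fosl2* and *Maff*, r was 0.95 (permutation p = 0.0139) and rho 0.81 (permutation p = 0.0365), falling to an r of 0.74 without control A1 and control C1. *Fos* and *Fosb* had an r of 0.72 (permutation p = 0.0243) and a rho of 0.83 (permutation p = 0.0208), with an r of 0.51 without control C1 and *Rora* EKO C2. *Fos* and *Junb* went opposite ways, with an r of -0.66 (permutation p = 0.0972) and a rho of -0.81 (permutation p = 0.0347), and -0.59 without the same 2 libraries. After adjustment over the 36 pairs the lowest permutation p for r was 0.0625, that of *Jun* and *Junb*, and for rho 0.260, so 0 pairs passed 0.05. A letter holds at most 4 libraries, too few for a correlation within it. Only genotype means were subtracted and the permutations ran across letters, so variation by letter was not removed from r or from its p.

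**Figure D4:**
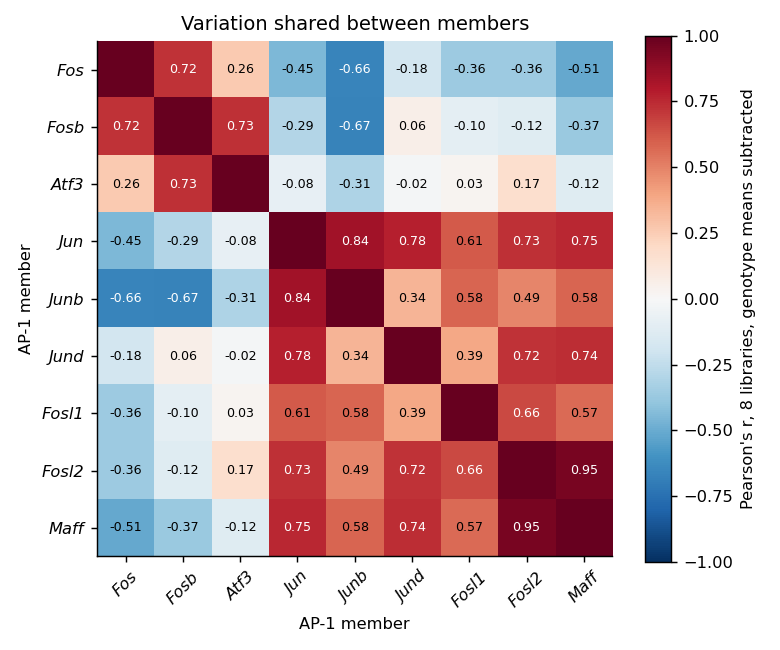
Pearson's r between the log2 CPM of AP-1 members (both axes) over 8 libraries after subtraction of genotype means, red for positive and blue for negative. The JUN genes, *Fosl1*, *Fosl2* and *Maff* show r from 0.34 to 0.95, of which 5 of 15 fall to 0.10 or less without the 2 farthest libraries, and *Fos* and *Junb* are at -0.66.

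The genes whose pattern was most like that of each member were taken as those with the highest r on the same values. For *Fos* these were *Slc4a4*, a bicarbonate transporter, *Terf2*, a telomere-binding protein, and *Gm44957*, with r of 0.971, 0.953 and 0.944. *Fosb* was followed by *Gm37087*, *Slurp2* and *Map2k6*, a kinase upstream of p38, at 0.988, 0.984 and 0.978. *Junb* was followed by *Elovl7*, which elongates fatty acids, *Rela*, a subunit of NF-κB, and *Ier5*, an immediate early gene, at 0.983, 0.977 and 0.976. *Jun* was followed by *Plekhh3*, *Gnb2* and *Mrpl53* (0.985 to 0.975), and *Jund* by *Stard3nl*, *Eif4e* and *Mrpl14* (0.992 to 0.982). For *Fosl1* they were *Cenpk*, *Cspg4* and *Sox12* (0.984 to 0.964), and for *Fosl2* *Ptger3*, *Fbxo38* and *Zbtb21* (0.988 to 0.978). *Atf3* was followed by *Fhad1* and *Ckb* (0.979 and 0.977), and *Maff* by *Endod1*, *Lpin3* and *Sertad1* (0.998 to 0.991). These are the highest of 13147 values over 8 libraries and are given as a description, and at most 1 of the 3 genes of any member stayed among its first 3 when genotype means were kept.

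Of 12 other dimer partners, in the BATF, JDP2, ATF2, ATF7 and MAF families, 6 were tested and 0 were called by edgeR, with 0 at an unadjusted p under 0.05 and 0 called by DESeq2 or limma-trend. Of all tested genes, edgeR called 5.51%, DESeq2 7.85% and limma-trend 5.67%, and 18.2% had an unadjusted p under 0.05 in edgeR. The 6 that failed the filter included *Batf*, *Batf3* and *Jdp2*, each with at most 7 counts in a library. *Maf*, a large MAF protein with an activation domain, was at 123 ± 40.3 CPM in control and 88.4 ± 18.4 CPM in *Rora* EKO (SD, n = 4), with a log2 fold change of -0.48 (edgeR adjusted p = 0.321). *Mafg*, a small MAF like *Maff*, differed by 0.07 (edgeR adjusted p = 0.805), with a limma-trend interval of 0.906-fold to 1.22-fold.

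Immediate early genes outside AP-1 were measured in the same libraries, because the members among this class can be induced while tissue is handled. Of 31 listed, 28 were tested, 2 were called higher and 1 lower in *Rora* EKO, which is 10.7% beside 5.51% of all tested genes. With the title letter as block edgeR called 8, 6 higher and 2 lower, beside 7.6% of all tested genes. DESeq2 and the edgeR likelihood ratio test called 5 each, beside 7.85% and 7.67% of all genes. Their median log2 fold change was 0.26, with 22 above 0 and 6 below. At an unadjusted p under 0.05 there were 11 of the 28, 39.3% beside 18.2% of all tested genes, and the genotypes did not overlap in 7, 25.0% beside 12.9%. *Socs3*, an inhibitor of cytokine signalling through STAT3, was at 9.93, 13.0, 7.34 and 18.4 CPM in control A1, B1, C1 and C6 and at 41.6, 36.5, 74.3 and 64.8 CPM in *Rora* EKO A3, B4, C2 and C3. The genotypes did not overlap, and it rose by 2.16 ± 0.37 on the log2 scale (SE; edgeR adjusted p = 0.00441). *Rhob*, a small GTPase, rose by 0.89 (edgeR adjusted p = 0.0472), from 50.0 ± 16.3 to 92.5 ± 14.8 CPM, and *Btg2*, an antiproliferative gene, fell by 0.66 (edgeR adjusted p = 0.0288), from 107 ± 16.8 to 67.9 ± 8.85 CPM (SD, n = 4). *Socs3* was past the cutoffs in each fit that left out 1 library, whereas *Btg2* kept its call only without control A1 or control C1, and *Rhob* only without control A1 or *Rora* EKO B4. *Btg2* also lost it with all genes of at least 1 count (edgeR adjusted p = 0.0531) and *Rhob* with at least 10 counts in every library (edgeR adjusted p = 0.0523). Both lost it with *Xist* as covariate (log2 fold changes of -0.61 and 0.65, edgeR adjusted p of 0.120 and 0.203) and without control C1 and C6 (-0.56 and 0.71, adjusted p of 0.116 and 0.196). The within-genotype SD of log2 CPM had a median of 0.472 over this list. Whether induction during the isolation of the epidermis added to the member values was not tested.

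Heat shock genes were listed because of the heat step, and 1 of the 18 tested was called, 5.56% beside 5.51% of all tested genes. At an unadjusted p under 0.05 there were 6, or 33.3% beside 18.2%. *Hspb1*, the gene of the small chaperone HSP27, which is abundant in upper epidermis, was at 586, 595, 424 and 640 CPM in control A1, B1, C1 and C6 and at 258, 256, 309 and 268 CPM in *Rora* EKO A3, B4, C2 and C3. The genotypes lay apart, and it fell by 1.04 ± 0.15 on the log2 scale (SE; edgeR adjusted p = 0.00532). The median over the list was -0.08. The abundant chaperone genes *Hsp90ab1* and *Hspa8* were at -0.02 and 0.04 (edgeR adjusted p of 0.972 and 0.958). Heat-inducible genes that did not pass the cutoffs were picked out after their values were seen. *Bag3*, a partner of HSP70, was at 38.4, 28.5, 23.0 and 24.3 CPM in control A1, B1, C1 and C6 and at 39.4, 71.5, 50.3 and 41.4 CPM in *Rora* EKO A3, B4, C2 and C3. Its genotypes did not overlap, and its log2 fold change was 0.83 (edgeR unadjusted p = 0.00475, adjusted p = 0.0658). The HSP70 genes *Hspa1a* and *Hspa1b* were at 0.52 and 0.71 with overlapping genotypes (edgeR unadjusted p of 0.0429 and 0.0802, adjusted p of 0.252 and 0.354). *Hsp90aa1* and *Hsph1* were at -0.40 and -0.36, also with overlapping genotypes (edgeR adjusted p of 0.398 and 0.532). The HSP40 gene *Dnajb1* was at -0.41 with genotypes that did not overlap (edgeR unadjusted p = 0.0124, adjusted p = 0.122). *Hspe1*, the mitochondrial HSP10 gene, and *Chordc1*, a partner of HSP90, were at -0.47 and -0.51 (edgeR unadjusted p of 0.0243 and 0.0229), so of the 6 genes at an unadjusted p under 0.05, 4 had negative and 2 positive values. The summed level of the 18 genes was 2661 to 3094 CPM in control and 2449 to 3012 CPM in *Rora* EKO libraries. Its part in the member values was not tested.

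Among 32 regulators of AP-1 (MAP kinases, SRF and its partners, dual-specificity phosphatases and ubiquitin ligases that target JUN), 29 were tested and 1 was called, 3.45% beside 5.51% of all tested genes. *Dusp6*, a phosphatase that inactivates ERK and is itself induced by ERK signalling, was at 3.92, 2.19, 2.65 and 2.85 CPM in control A1, B1, C1 and C6 and at 4.89, 7.15, 6.26 and 5.49 CPM in *Rora* EKO A3, B4, C2 and C3. The genotypes did not overlap, and it rose by 1.03 ± 0.21 on the log2 scale (SE; edgeR adjusted p = 0.0251). When libraries were dropped 1 at a time, the call was kept for 2 of the 8, control A1 and *Rora* EKO A3, and log2 fold changes stayed between 0.92 and 1.21 over all alternatives. It was also lost with *Xist* as covariate and without control C1 and C6 (edgeR adjusted p of 0.133 and 0.153). The kinases *Map2k4*, which acts on JNK, and *Mapk3*, which is ERK1, were at 0.19 and 0.08 (edgeR adjusted p of 0.660 and 0.858), and the list median was 0.03.

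AP-1 target genes of the epidermis held the largest changes of these lists. Of 26 listed, 18 were tested, 3 were called higher and 0 lower in *Rora* EKO by edgeR, and the median was 0.13, while 7 of the 18, 38.9% beside 18.2% of all tested genes, had an unadjusted p under 0.05. The share called was 16.7% beside 5.51%. *Krt16*, a keratin of stressed and wounded epidermis, was at 187, 193, 145 and 96.2 CPM in control A1, B1, C1 and C6 and at 1280, 2610, 1172 and 1030 CPM in *Rora* EKO A3, B4, C2 and C3. The genotypes lay far apart, and it rose by 3.29 ± 0.38 on the log2 scale (SE; edgeR adjusted p = 0.000911). *Sprr1b*, a cornified envelope precursor, rose by 2.85 (edgeR adjusted p = 0.0344), from 36.0 ± 25.5 to 261 ± 249 CPM, and *Krt6a*, the keratin partner of *Krt16*, rose by 2.64 (edgeR adjusted p = 0.0440), from 6.94 ± 3.25 to 43.5 ± 44.96 CPM (SD, n = 4). *Rora* EKO B4 was the highest in all of these, as it was in *Jun* and *Junb*, and without it the calls of *Krt16*, *Sprr1b* and *Krt6a* were kept at smaller log2 fold changes of 2.90, 1.92 and 1.6. *Sprr1b* lost its call without control B1, C1 or C6, and DESeq2 gave no test result for it. *Krt6a* kept its call only without *Rora* EKO A3 or B4 and lost it with the title letter as block (log2 fold change 2.13, edgeR adjusted p = 0.0690). Both also lost it with *Xist* as covariate and without control C1 and C6, at edgeR adjusted p of 0.153 to 0.203 and log2 fold changes of 2.31 and 2.43 for *Sprr1b* and 2.69 and 2.79 for *Krt6a*. *Krt16* and *Krt6a* are known to depend on several signals besides AP-1, and the part of AP-1 in these changes was not tested.

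**Figure D5:**
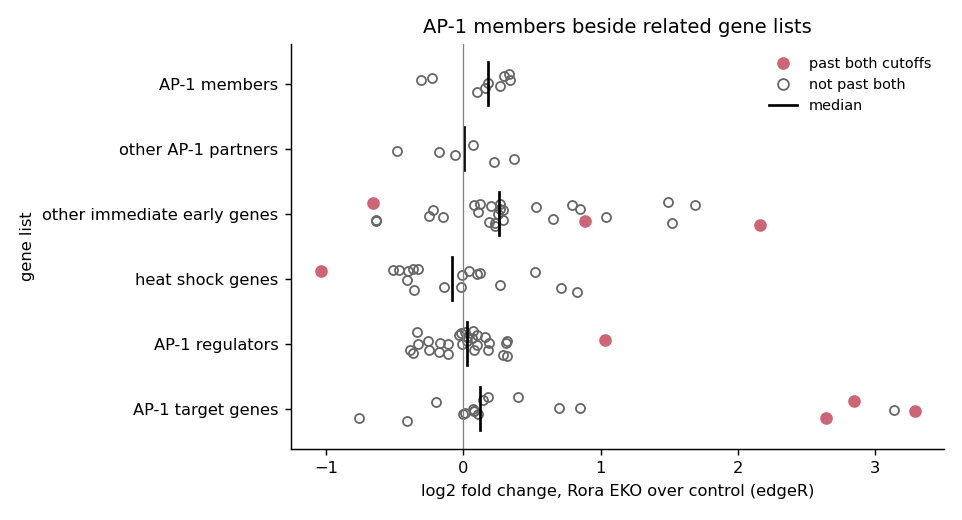
Log2 fold change (*Rora* EKO over control, edgeR, x axis) of every tested gene in the AP-1 set and 5 related lists (y axis), filled where both cutoffs were passed, with a black line at each median. AP-1 members stay between -0.31 and 0.34 with none filled, and the filled genes are *Socs3*, *Rhob*, *Btg2*, *Hspb1*, *Dusp6*, *Krt16*, *Sprr1b* and *Krt6a*.

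Markers of cell types that the peeled epidermis could hold were summed beside the member values. Spinous keratinocyte markers did not overlap between genotypes, at 45080 to 71051 CPM in control and 86439 to 107690 CPM in *Rora* EKO libraries, although 0 of their 7 genes were called by the edgeR quasi-likelihood test or limma-trend, with 1 at an unadjusted p under 0.05 in the former. Of all tested genes, these tests called 5.51% and 5.67%, and 18.2% were at an unadjusted p under 0.05 in the former. DESeq2 called 2 of the 7, *Krt1* and *Krt10*, and the edgeR likelihood ratio test 1, *Krt10*, beside 7.85% and 7.67% of all genes. Granular markers, 15006 to 20808 and 16685 to 22761 CPM, T cell markers, 17.7 to 45.8 and 15.3 to 62.0 CPM, and Langerhans cell markers, 241 to 362 and 270 to 297 CPM, overlapped. Of their genes the edgeR quasi-likelihood test called 0, with 1 granular gene and none of the others at an unadjusted p under 0.05, and DESeq2 and the edgeR likelihood ratio test each called 1, the granular gene *Casp14*. Dermal fibroblast markers summed to 37.3 to 61.5 CPM in control and 48.4 to 70.3 CPM in *Rora* EKO, with 1 of 5 tested genes called higher, and melanocyte markers to 25.2 to 56.2 and 17.3 to 33.2 CPM with 0 of 5 called by the edgeR quasi-likelihood test, 3 at an unadjusted p under 0.05 and 1, *Tyr*, called by DESeq2 and the edgeR likelihood ratio test. The single marker genes are named because of these calls, after their values were seen. Neutrophil and macrophage markers stayed at 10.6 CPM or less and skeletal muscle markers at 4.39 CPM or less. Of the 3 neutrophil and macrophage markers tested, the edgeR quasi-likelihood test called 0, and 1 had an unadjusted p under 0.05. The part of these cell types in the member values was not tested. On the opposite strand, *Fosl1* overlaps *Ccdc85b*, *Jun* overlaps *Junos* and *Junb* overlaps *Prdx2* in the annotation. The libraries were made with a stranded kit, but the strand setting of the counting is not given in the sources used here, so whether reads of these partners were kept apart is not known.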

How the data were processed

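Per the study's methods, reads were trimmed (Skewer), aligned to GRCm39 (STAR 2.5.3a) and assigned to genes (RSEM). The authors deposited the resulting expected counts in 8 columns headed by sample title, with no scaling for depth or length. The annotation release is not given in the sources used here. Counts were rounded to whole numbers (13238 values were not whole), and symbols, exon lengths and coordinates came from GENCODE release M39 for 54749 of the 55416 identifiers.

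After filterByExpr and TMM scaling, edgeR 4.0.16 (R 4.3.3) was run in its quasi-likelihood form with genotype as the single term. A gene was called at a Benjamini-Hochberg adjusted p below 0.05 if its fold change also exceeded 1.5. CPM values use TMM-scaled totals, and a floor of 3 counts is 0.113 to 0.196 CPM, covering counting error only. Each SE was computed for the difference between genotype means of log2 CPM (prior count 2). Intervals are from limma 3.58.1 (limma-trend). Alternatives included DESeq2 1.42.0, RLE scaling, other filters, title letter or *Xist* as covariate and leaving out libraries. The script was tested on simulated data. Correlations used permutations within genotypes (576 orders). All 9 members were named; of the other lists, every gene past the cutoffs and, if fewer than 3, the most abundant up to 3 in all; of marker lists the sums. A few results that this rule would name are not reported here. The members and lists were chosen with earlier results of these data known. limma-trend was added after seeing the data.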

Additional observations from a re-analysis of the deposited data

Results flagged for a closer look

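Among 23 genes named for these lists, each genotype was checked for 1 library far from the other 3, and 6 of 46 such groups had one. Chance alone flags about 1 group in 20. Of the AP-1 members this applied to *Fosl1* alone, at 4.96 CPM in *Rora* EKO A3 beside 7.07 to 7.34 CPM in the other *Rora* EKO libraries.

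*Rora* EKO B4 was the high library for *Krt16*, at 2610 CPM beside 1030 to 1280 CPM, for *Sprr1b*, at 633 CPM beside 128 to 151 CPM, and for *Krt6a*, at 111 CPM beside 15.3 to 24.2 CPM. *Maf* was at 184 CPM in control A1 and at 98.1 to 106 CPM in the other controls. *Hspa8* was at 376 CPM in control C6 and at 558 to 590 CPM in the others. The cause of these values was not tested.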

How the results depend on the processing

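The number of AP-1 members past both cutoffs was 0 in every fit run, and *Fosl1*, *Fosl2* and *Jun* kept their sign in all 19 alternatives, although their log2 fold changes were smaller with *Xist* as covariate, at 0.08, 0.17 and 0.11. The sign of the other 6 changed in some, each time without a call. With *Xist* as covariate, the log2 fold changes of *Fos*, *Fosb*, *Jund* and *Maff* were 0.31, 0.04, -0.06 and -0.24, and without control C1 and C6 those of *Fos*, *Fosb* and *Maff* were 0.36, 0.08 and -0.16. Leaving out single libraries gave -0.38 to 0.04 for *Fos* and -0.02 to 0.38 for *Maff* (turned without control C1), -0.01 to 0.49 for *Junb* (without *Rora* EKO B4) and -0.04 to 0.38 for *Atf3* (without *Rora* EKO C2). The widest range was that of *Fosb*, -0.85 without *Rora* EKO C2 to 0.00 without *Rora* EKO B4. The cause was not tested. Other values near 0 also turned: *Hsp90ab1* to 0.01 with RLE scaling or DESeq2, 0.03 with all genes of at least 1 count and between -0.08 and 0.10 without single libraries; *Hspa8* to -0.01 with library size alone, -0.12 with *Xist*, -0.05 without C1 and C6 and between -0.11 and 0.17 without single libraries; *Mapk3* to -0.07 with *Xist* and 0.00 without C1 and C6.

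Over all genes, 725 were called, 472 with *Xist*, 314 without C1 and C6 (fewer samples) and between 457 and 896 without single libraries, lowest without control B1 and 475 without *Rora* EKO C3. The total was 1031 with DESeq2, 1009 with the likelihood ratio test, 999 with the title letter as block, 974 with an adjusted p below 0.1 and 794 with all genes of at least 1 count. Of the 725, 302 were higher and 423 lower in *Rora* EKO. This split was 245 and 482 with library size alone, 389 and 405 with all genes of at least 1 count and 367 and 335 without *Rora* EKO A3. Of immediate early genes 3 were called, 5 with DESeq2, the likelihood ratio test or an adjusted p below 0.1, 8 with the title letter as block, 1 with *Xist* or without C1 and C6, and 1 to 5 without single libraries. Of heat shock genes 1 was called, 2 with DESeq2, the likelihood ratio test, all genes of at least 1 count or an adjusted p below 0.1, 3 with the letter block, and 1 to 2 without single libraries. Of regulators 1 was called, 0 with *Xist*, without C1 and C6 and in 6 of the 8 fits without a single library, and at most 1 in the rest of those. Of AP-1 targets 3 were called, 5 with the likelihood ratio test or an adjusted p below 0.1, 1 with *Xist* or without C1 and C6, and 1 to 4 without single libraries. Per length, the longest transcript gave 1.15 for *Fosb*, 19.0 for *Fosl2* and 16.6 CPM per kb for *Maff*. The labels give the genotypes no shared replicate numbers, and the title letter, which each genotype holds, was used as the block. With 4 libraries a genotype, the limma-trend intervals of all members but *Jund* allow a change of 1.5-fold in at least 1 direction. *Fosb* and *Atf3* had the fewest counts, 163 or fewer per library.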
